A study of Drosophila melanogaster with 10 samples.

Results

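The pericentromeric region of the right arm of chromosome 3 (chr3R) of Drosophila melanogaster was examined in S2 cells, a cell line derived from embryos, by 5C-seq, which counts ligation products between restriction fragments that lie close to each other in the nucleus. The members were all pairs of different 10 kb bins of this arm among the first 37 of the 43 bins of the arm. They span chr3R:6153-376153 of the dm3 genome build. This gave 666 bin pairs of the 903 on the arm and of the 40796 within all 5 arms that were measured. The bins lay 10 to 360 kb apart. Genes, exons and repeats of the region were not placed, because no annotation of this build was used here.

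The 9 libraries came from cells treated with double-stranded RNA (dsRNA) against HP1a (2 libraries, HP1a RNAi) or against Su(var)3-9 (2 libraries, Su(var)3-9 RNAi), from cells treated with dsRNA against GFP (2 libraries, mock RNAi) and from untreated wild-type cells (3 libraries, WT). The depleted and the mock RNAi cells received 1 µg of dsRNA and were harvested after 3 days. The depleted cells thus carried a knockdown and not a deletion, and all the cells were of 1 line. The study's methods call the WT replicates biological and the RNAi experiments duplicates, without saying whether the RNAi duplicates came from separate cultures, so the spread within an RNAi group may be technical. A non-crosslinked WT control, which served to normalise the 5C libraries, was not analysed here as a library of its own.

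Pericentromeric heterochromatin is the compact, repeat-rich chromatin that flanks the centromere. Su(var)3-9 is a histone methyltransferase that places methyl groups on lysine 9 of histone H3, and HP1a binds the methylated lysine, bridges nucleosomes and recruits further Su(var)3-9. Both genes were found in flies as modifiers of position effect variegation, the patchy silencing of a gene placed next to heterochromatin. The score of a bin pair is the log2 ratio of the observed contact frequency to that expected at its distance, so a score above 0 marks a contact more frequent than expected.

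Contacts could be detected only where the assay had a primer. The primer set for this arm held 30 forward and 30 reverse primers, each on a fragment of its own, which allow 900 forward and reverse combinations. Each primer carries 30 bases of genomic sequence that stop inside an EcoRI site, and all 30 forward primers ended in GAA while all 30 reverse primers began with TTC, so that a ligation product rejoins the site. The outermost forward and reverse primers by fragment number are shown to make this junction visible, 5′ to 3′, with the EcoRI half-site in capitals.
5C_5924_3RE_FOR_3: ggaaacactatatttgtattcaatcaaGAA
5C_5924_3RE_FOR_106: gtttatggccaaaaattcttgtcgaaaGAA
5C_5924_3RE_REV_2: TTCtcctcctcgtctatgatcattaatcta
5C_5924_3RE_REV_103: TTCacttttcagaaggacagagcatcctcg
The GC content of the 30 genomic bases ranged from 20% to 60% over the 60 primers, with a median of 40%. Fragment numbers ran from 2 to 106, so 60 of the EcoRI fragments in this numbering carried a primer.

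A score of exactly 0 was treated as missing. On this basis 640 of the 666 pairs had a value in at least 1 library and 585 had one in all 9, while 26 pairs had a value in none and are not described further. Missing pairs numbered 72 and 65 in the HP1a RNAi libraries, 44 and 63 in the Su(var)3-9 RNAi libraries, 39 and 42 in mock RNAi and 43, 46 and 41 in WT. More pairs were therefore missing in both HP1a RNAi libraries and in Su(var)3-9 RNAi replicate 2 than in any control. The part of missing pairs in the results below was not tested beyond the settings named in the closing section. Because the scores had been smoothed over neighbouring bins, each library held only 268 to 347 distinct values, and neighbouring pairs are not independent measurements. The deposited scores carry no read counts, so the depth behind each score is unknown. The study reports that too few interactions mapped to chr3R to define topologically associating domains, and it called none on this arm. The blocks and stretches described below are therefore no called domains.

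The first question was how frequent chr3R contacts were as a whole. Most contacts of the region were less frequent than expected in every library. The median score was -0.51 and -0.32 in the HP1a RNAi libraries, -1.54 and -0.93 in the Su(var)3-9 RNAi libraries, -0.65 and -0.67 in mock RNAi, and -0.48, -0.42 and -0.61 in WT. Both HP1a RNAi medians lay above both mock RNAi medians but within or above the WT range, whereas both Su(var)3-9 RNAi medians lay below every other library. The mean median was -0.41 ± 0.13 in HP1a RNAi, -1.23 ± 0.43 in Su(var)3-9 RNAi, -0.66 ± 0.01 in mock RNAi (SD, n = 2 each) and -0.50 ± 0.10 in WT (SD, n = 3). The low level of Su(var)3-9 RNAi was not particular to chr3R. At matched distances the other autosomal arms were at -1.16 and -1.43 in Su(var)3-9 RNAi, again below every other library. They were at -0.53 and -0.31 in HP1a RNAi, -0.79 and -0.68 in mock RNAi and -0.45, -0.28 and -0.57 in WT.

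**Figure D1:**
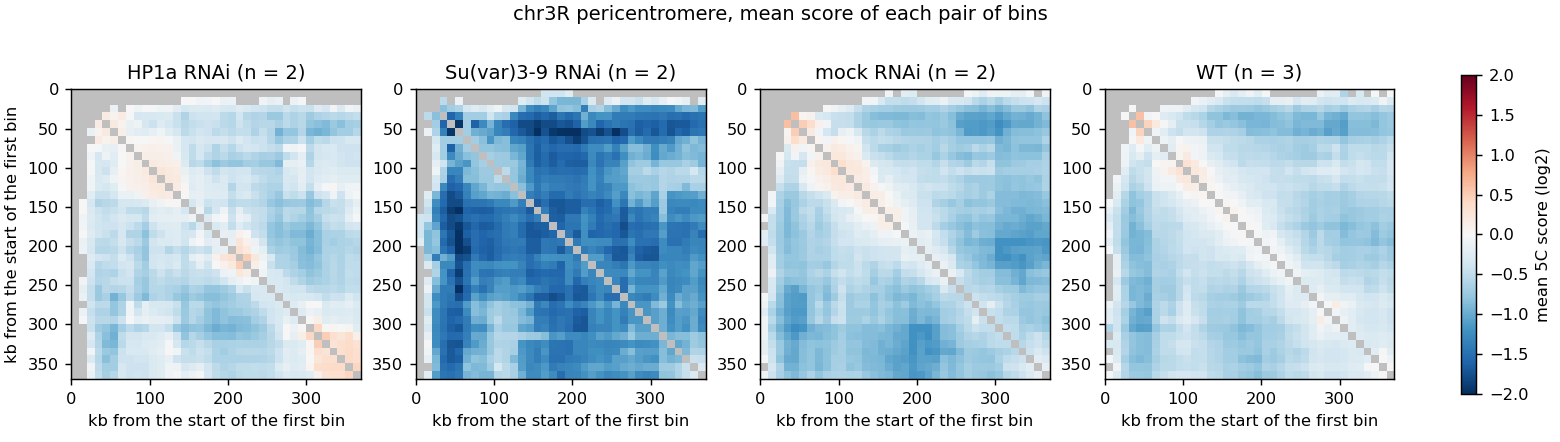
Mean 5C score (log2, colour) of each pair of chr3R bins in HP1a RNAi, Su(var)3-9 RNAi, mock RNAi and WT cells. Both axes give the distance in kb from the start of the first bin, and grey marks the diagonal and pairs with no value. Su(var)3-9 RNAi cells show the lowest scores over nearly the whole map. Mock RNAi and WT cells show scores above 0 close to the diagonal at 30 to 60 kb and at 80 to 140 kb. The HP1a RNAi map shows a further patch in the last 60 kb, where the mean was 0.62 in replicate 1 and 0.04 in replicate 2.

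HP1a RNAi minus mock RNAi was 0.25 and Su(var)3-9 RNAi minus mock RNAi was -0.57 for the median score. With 2 libraries a group the two-sided exact permutation test cannot go below p = 0.333, and both differences stood at that limit (adjusted p = 0.63 over 17 exact tests). Without HP1a RNAi replicate 1 or 2 the first difference was 0.34 or 0.15, and without Su(var)3-9 RNAi replicate 1 or 2 the second was -0.27 or -0.88. Against the 5 mock RNAi and WT libraries together, a comparison added after the values were seen, the difference of Su(var)3-9 RNAi was -0.67 with no overlap (exact permutation p = 0.0952, the smallest possible, adjusted p = 0.152 over 8 tests). HP1a RNAi differed from these 5 by 0.15 and overlapped with them (exact permutation p = 0.286). The median score averaged -0.82 ± 0.54 in the 4 depleted libraries and -0.56 ± 0.11 in the 5 controls, a difference that was not detectable (SD, exact permutation p = 0.381) and that shrank to -0.02 without Su(var)3-9 RNAi replicate 1. Mock RNAi lay below all 3 WT libraries, by -0.16 on average (exact permutation p = 0.2, the smallest possible).

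The pairs with a score above 0 were then counted. HP1a RNAi libraries had 71 and 62 such pairs, Su(var)3-9 RNAi libraries had 0 and 1, mock RNAi libraries had 20 and 52, and WT libraries had 7, 48 and 48. HP1a RNAi thus had the most pairs above 0 and Su(var)3-9 RNAi almost none, while the controls spread over a wide range, with mock RNAi replicate 1 and WT replicate 1 at its lower end. As shares of the pairs with a value these were 11.95% and 10.3% in HP1a RNAi, 0% and 0.166% in Su(var)3-9 RNAi, 3.19% and 8.33% in mock RNAi and 1.12%, 7.74% and 7.68% in WT. The share averaged 11.1% ± 1.16 in HP1a RNAi and 5.76% ± 3.64 in mock RNAi (SD, n = 2 each), and neither this difference nor that of Su(var)3-9 RNAi (0.0829% ± 0.117) could pass the exact permutation test (p = 0.333, adjusted p = 0.63). The differences were 5.37 and -5.68 percentage points, and they were 2.80 and -8.25 without mock RNAi replicate 1 and 7.94 and -3.11 without mock RNAi replicate 2. Both depletions stood clear of all 5 controls, HP1a RNAi above and Su(var)3-9 RNAi below, with an exact permutation p of 0.0952 each, the smallest possible (adjusted p = 0.152).

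This count depends on the level of the library. When each library's own chr3R median was subtracted and pairs more than 0.5 above it were counted, the shares were 13.0% and 2.00% in HP1a RNAi, 20.9% and 6.30% in Su(var)3-9 RNAi, 10.4% and 14.3% in mock RNAi and 0.803%, 4.19% and 13.4% in WT. On this relative scale the groups overlapped, and the differences from mock RNAi changed sign, to -4.84 percentage points for HP1a RNAi and 1.29 for Su(var)3-9 RNAi.

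**Figure D2:**
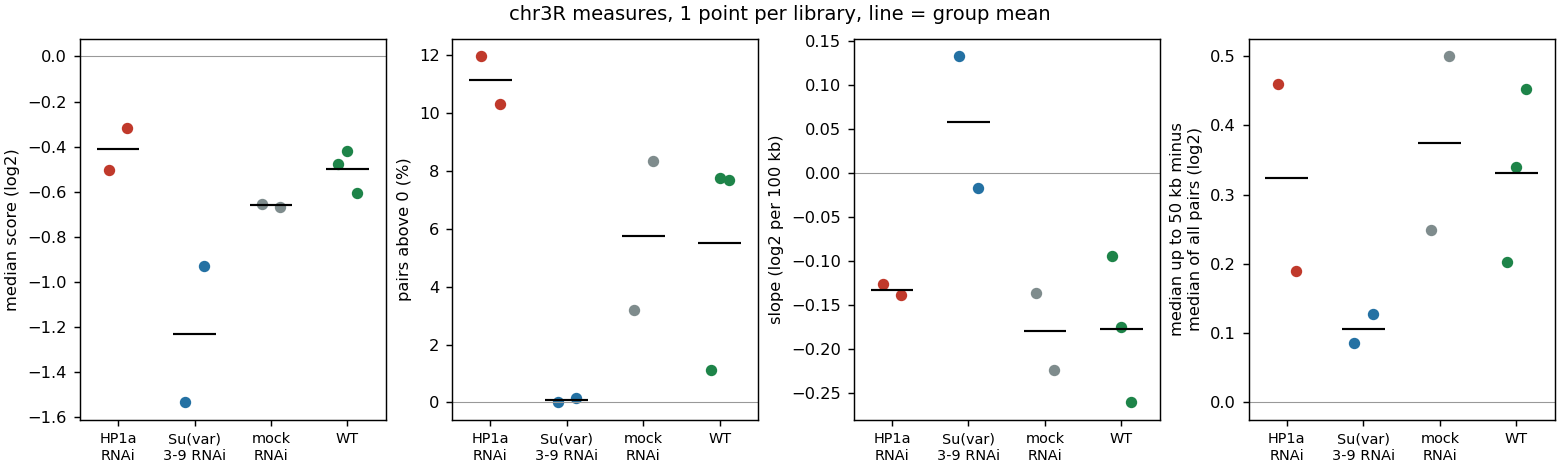
Median score (log2), percentage of pairs above 0, slope of the score with distance (log2 per 100 kb) and median of pairs up to 50 kb apart minus the median of all pairs (log2) on chr3R, for HP1a RNAi, Su(var)3-9 RNAi, mock RNAi and WT. Each point is 1 library and each line a group mean. Su(var)3-9 RNAi lies apart from all other libraries in all 4 panels, and HP1a RNAi lies apart from the controls only in the percentage above 0.

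Distance decay was examined next. The scores had already been divided by the frequency expected at each distance, so any remaining trend is what that step left. A straight line through all pairs fell with distance in 8 of the 9 libraries. Its slope was -0.126 and -0.138 per 100 kb in the HP1a RNAi libraries, 0.133 and -0.0166 in the Su(var)3-9 RNAi libraries, -0.135 and -0.223 in mock RNAi and -0.0945, -0.174 and -0.26 in WT. The HP1a RNAi slopes lay within the range of the controls. Both Su(var)3-9 RNAi slopes lay above it, and replicate 1 rose with distance. Su(var)3-9 RNAi minus mock RNAi was 0.237 per 100 kb (exact permutation p = 0.333, the smallest possible, adjusted p = 0.63) and HP1a RNAi minus mock RNAi was 0.0471 (exact permutation p = 0.667). For the 4 depleted libraries against the 5 controls the difference was 0.141 per 100 kb, with an exact permutation p of 0.0794 and an adjusted p of 0.63. This raw p fell below 0.05 under 3 other settings given in the closing section, none of which was adjusted for the number of tests.

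The scores were then split by distance class. Pairs up to 50 kb apart had medians of -0.05 and -0.13 in HP1a RNAi, -1.45 and -0.80 in Su(var)3-9 RNAi, -0.40 and -0.17 in mock RNAi, and -0.27, -0.08 and -0.15 in WT. From 50 to 100 kb the medians were -0.63 and -0.33 in HP1a RNAi, -1.66 and -1.08 in Su(var)3-9 RNAi, -0.66 and -0.63 in mock RNAi, and -0.49, -0.40 and -0.55 in WT. Every library was thus lower in this class than up to 50 kb. From 100 to 200 kb they were -0.64 and -0.33 in HP1a RNAi, -1.59 and -0.93 in Su(var)3-9 RNAi, -0.75 and -0.78 in mock RNAi, and -0.59, -0.58 and -0.76 in WT. For pairs over 200 kb apart the medians were -0.42 and -0.51 in HP1a RNAi, -1.18 and -0.95 in Su(var)3-9 RNAi, -0.82 and -0.76 in mock RNAi, and -0.46, -0.47 and -0.76 in WT. In 8 of the 9 libraries the scores were thus lower over 200 kb than up to 50 kb. In Su(var)3-9 RNAi replicate 1 the order was the opposite, and replicate 2 had the smallest gap of the other libraries. From the class of 100 to 200 kb to that over 200 kb the median fell further in HP1a RNAi replicate 2 and mock RNAi replicate 1. It also fell slightly in Su(var)3-9 RNAi replicate 2. The median rose in all other libraries, though only slightly in mock RNAi replicate 2 and WT replicate 3.

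Relative to the chr3R median of each library, pairs up to 50 kb apart lay 0.46 and 0.19 higher in HP1a RNAi, 0.09 and 0.13 higher in Su(var)3-9 RNAi, 0.25 and 0.50 higher in mock RNAi and 0.20, 0.34 and 0.45 higher in WT. The short-range excess was therefore smaller in both Su(var)3-9 RNAi libraries than in any other library, whereas HP1a RNAi and the controls overlapped. The group means were 0.11 ± 0.03 in Su(var)3-9 RNAi and 0.37 ± 0.18 in mock RNAi (SD, n = 2 each), a difference of -0.27 that reached the exact permutation limit of 0.333. Against all 5 controls the difference was -0.24 without overlap (exact permutation p = 0.0952, adjusted p = 0.152).

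**Figure D3:**
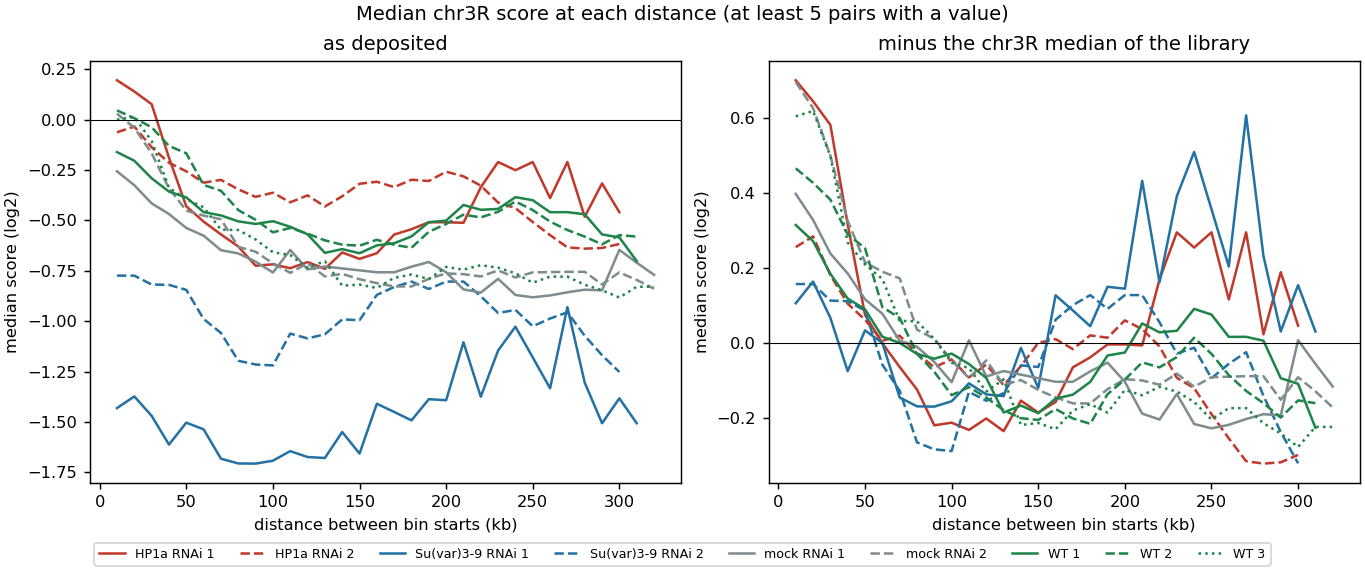
Median chr3R score (log2) against the distance between bins (kb), as deposited on the left and minus the chr3R median of each library on the right. Each line is 1 library, in order HP1a RNAi, Su(var)3-9 RNAi, mock RNAi and WT, and distances with fewer than 5 pairs with a value are left out. All lines lie lower at 100 kb than at 10 kb, and HP1a RNAi replicate 1 and Su(var)3-9 RNAi replicate 1 are the highest at 250 kb after subtraction.

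At 10 kb, the shortest distance, the median score was 0.20 and -0.06 in HP1a RNAi, -1.43 and -0.77 in Su(var)3-9 RNAi, -0.26 and 0.03 in mock RNAi and -0.16, 0.05 and 0.00 in WT. At 250 kb it was -0.21 and -0.51 in HP1a RNAi, -1.18 and -1.03 in Su(var)3-9 RNAi, -0.88 and -0.76 in mock RNAi and -0.40, -0.45 and -0.81 in WT. WT replicate 3 thus resembled mock RNAi rather than WT replicates 1 and 2 at this distance.

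Pairs above 0 were mostly short-range. Of the 79 pairs above 0 in any of the 5 controls, 78 lay within 50 kb and the longest spanned 60 kb. In HP1a RNAi 103 pairs were above 0 in at least 1 library, 52 of them shared with a control and 51 not. All 71 of replicate 1 lay within 50 kb, but 22 of the 62 of replicate 2 lay farther apart, 14 of them over 100 kb and up to 230 kb. These longer pairs joined bins between 76153 and 176153 with bins between 166153 and 376153, and their scores in replicate 2 were low, from 0.01 to 0.23. In HP1a RNAi replicate 1 the same 22 pairs ranged from -0.73 to -0.0022, with a median of -0.51, so the long-range pairs above 0 were seen in 1 of the 2 libraries. Their medians in mock RNAi were -0.54 and -0.56, and in WT -0.44, -0.40 and -0.52.

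Among the 30 pairs above 0 in both HP1a RNAi libraries, 20 were also above 0 in a control and 10 were not. These 10 fell into 2 groups, 4 pairs among bins from 196153 to 246153 and 6 pairs among bins from 296153 to 366153, all at 10 to 40 kb. The pair of chr3R:316153-326153 with chr3R:326153-336153 was at 0.42 and 0.57 in HP1a RNAi, -1.32 and -0.51 in Su(var)3-9 RNAi, -0.48 and -0.54 in mock RNAi and -0.16, -0.11 and -0.48 in WT. It was above 0 only in the HP1a RNAi libraries, which also lay above all other libraries. No test was applied to these pairs, which were chosen by their scores.

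The pairs above 0 in the most libraries were named by rule. No pair was above 0 in all 9, and 536 of the 666 were above 0 in none. The pair of chr3R:96153-106153 with chr3R:106153-116153 was above 0 in 7 libraries, with 0.33 and 0.03 in HP1a RNAi, -0.69 and -0.77 in Su(var)3-9 RNAi, 0.20 and 0.46 in mock RNAi and 0.06, 0.30 and 0.52 in WT. Only the Su(var)3-9 RNAi libraries were below 0 here. Another 9 pairs were above 0 in 6 libraries each, of which 7 joined bins between 96153 and 146153 and 2 were the neighbour pairs from 36153 to 66153. The 5 with the highest mean score were named, and of these chr3R:36153-46153 with chr3R:46153-56153 was at 0.68 and -0.35 in HP1a RNAi, -1.91 and -1.27 in Su(var)3-9 RNAi, 0.59 and 0.60 in mock RNAi and 0.58, 0.40 and 0.78 in WT. It was 1 of the 3 pairs above 0 in all 5 controls, and the HP1a RNAi libraries took opposite sides of 0 at it.

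These pairs lay in 2 blocks near the diagonal, delimited after the scores were seen. The blocks were picked for pairs above 0, of which the Su(var)3-9 RNAi libraries had 0 and 1. High scores in the controls and low ones in Su(var)3-9 RNAi were thus partly built into the choice. The first, chr3R:36153-66153, holds 3 pairs. Their mean score was 0.68 and -0.41 in HP1a RNAi, -1.73 and -1.53 in Su(var)3-9 RNAi, 0.38 and 0.38 in mock RNAi and 0.30, 0.24 and 0.44 in WT. All 5 controls were above 0, both Su(var)3-9 RNAi libraries were far below, and the HP1a RNAi libraries were above and below the controls. The second, chr3R:86153-146153, holds 15 pairs, with means of 0.22 and 0.06 in HP1a RNAi, -0.81 and -0.80 in Su(var)3-9 RNAi, 0.00 and 0.29 in mock RNAi and -0.15, 0.08 and 0.21 in WT. HP1a RNAi lay within the control range here and Su(var)3-9 RNAi below it.

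Relative to the chr3R median of the library, the first block was lower in Su(var)3-9 RNAi (-0.20 and -0.60) than in mock RNAi (1.04 and 1.05) or WT (0.78, 0.66 and 1.04). The first block thus lay below the library median in Su(var)3-9 RNAi and above it in the controls, while HP1a RNAi was at 1.19 and -0.09. Its choice by pairs above 0 favoured high values in the controls, so this contrast is no independent evidence. The second block remained above the median, by 0.73 and 0.13 in Su(var)3-9 RNAi, 0.66 and 0.95 in mock RNAi and 0.33, 0.50 and 0.82 in WT, and these groups overlapped.

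A further stretch, the last 60 kb (chr3R:316153-376153, 15 pairs), had a mean above 0 in HP1a RNAi alone. It was chosen after the scores were seen. It covers pairs listed above as above 0 in both HP1a RNAi libraries and in no control, so a high HP1a RNAi mean was partly built into the choice. Its mean was 0.62 and 0.04 in HP1a RNAi, -1.11 and -0.35 in Su(var)3-9 RNAi, -0.44 and -0.42 in mock RNAi and -0.11, -0.07 and -0.42 in WT. Both HP1a RNAi libraries lay above all others, but replicate 2 by only a small margin over WT replicates 1 and 2. Of the 15 pairs, 15 and 8 were above 0 in HP1a RNAi, 0 and 1 in Su(var)3-9 RNAi, 0 and 0 in mock RNAi and 4, 3 and 0 in WT. Relative to the library median the values were 1.12 and 0.36 in HP1a RNAi, 0.43 and 0.58 in Su(var)3-9 RNAi, 0.22 and 0.25 in mock RNAi and 0.36, 0.35 and 0.18 in WT. On that scale HP1a RNAi replicate 2 lay level with WT replicates 1 and 2, and both Su(var)3-9 RNAi libraries lay above all 5 controls.

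**Figure D4:**
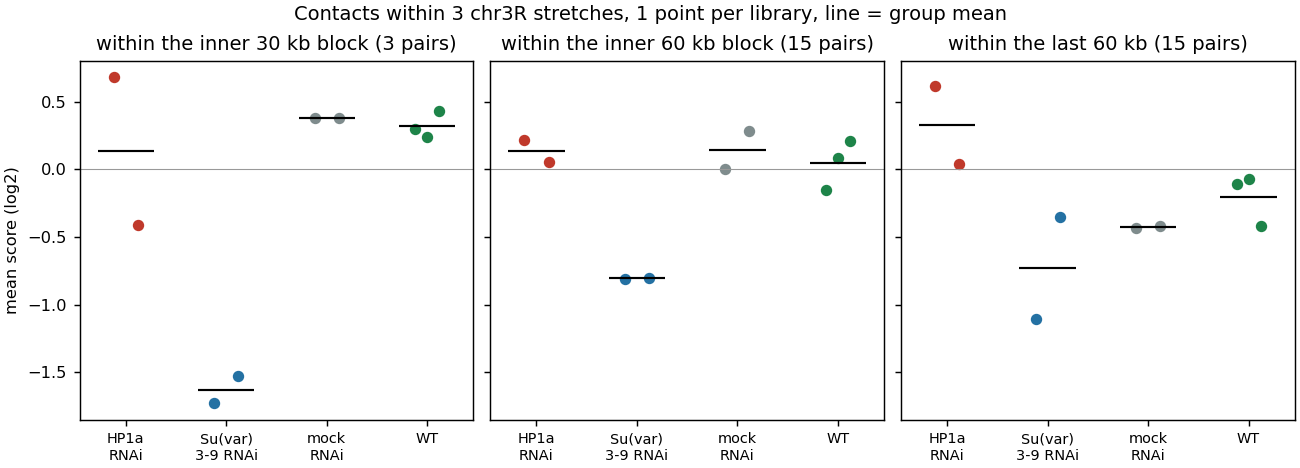
Mean score (log2) of the bin pairs within the inner 30 kb block (3 pairs), the inner 60 kb block (15 pairs) and the last 60 kb of the chr3R region (15 pairs), for HP1a RNAi, Su(var)3-9 RNAi, mock RNAi and WT. Each point is 1 library and each line a group mean. Su(var)3-9 RNAi is lowest in the inner blocks, the HP1a RNAi libraries lie at 0.68 and -0.41 in the first, and HP1a RNAi is highest in the last stretch. All of these stretches were chosen after the scores were seen.

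The position of high and low bins was described by the mean score of each bin with all other chr3R bins, for the 36 bins with at least 5 pairs with a value in every library. In the 5 controls the 3 highest bins were chr3R:106153-116153, chr3R:116153-126153 and chr3R:16153-26153. The bin at 106153 was at -0.31 and -0.17 in HP1a RNAi, -0.87 and -1.03 in Su(var)3-9 RNAi, -0.39 and -0.25 in mock RNAi and -0.34, -0.21 and -0.23 in WT. The bin at 116153 was at -0.28 and -0.13 in HP1a RNAi, -0.94 and -0.99 in Su(var)3-9 RNAi, -0.47 and -0.32 in mock RNAi and -0.36, -0.26 and -0.32 in WT. At both bins Su(var)3-9 RNAi lay below all other libraries and HP1a RNAi overlapped with the controls.

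The bin at 16153 behaved differently. It was at -0.11 and -0.07 in HP1a RNAi, -0.43 and -0.21 in Su(var)3-9 RNAi, -0.34 and -0.43 in mock RNAi and -0.24, -0.29 and -0.44 in WT. Both HP1a RNAi libraries were above the rest, and Su(var)3-9 RNAi overlapped with the controls at this bin, which was the highest of all 36 in 6 of the 9 libraries. It rests on only 9 pairs with a value in the library with the fewest, so its mean is less well supported than those of the other bins named here.

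The 3 lowest bins in the controls were chr3R:36153-46153, chr3R:46153-56153 and chr3R:306153-316153. The bin at 36153 was at -0.44 and -0.43 in HP1a RNAi, -1.52 and -1.0 in Su(var)3-9 RNAi, -0.72 and -0.74 in mock RNAi and -0.69, -0.56 and -0.80 in WT. The first 2 of these bins also form most of the first block, so bins that scored above 0 with their neighbours had the lowest means with the rest of the region. The bin at 306153 was at -0.56 and -0.47 in HP1a RNAi, -1.55 and -0.87 in Su(var)3-9 RNAi, -0.81 and -0.82 in mock RNAi and -0.49, -0.45 and -0.75 in WT. Its controls split, with WT replicates 1 and 2 above WT replicate 3 and mock RNAi. In the 4 depleted libraries, which the rule did not use, all 3 high bins were above all 3 low bins except in Su(var)3-9 RNAi replicate 2. In the controls, each pair was also corrected for the average of its library at that distance. The high bins then held ranks 2, 3 and 1 of 36 and the low bins ranks 35, 33 and 36. The controls had also been used to choose these bins, so the ranks are no independent check of them.

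**Figure D5:**
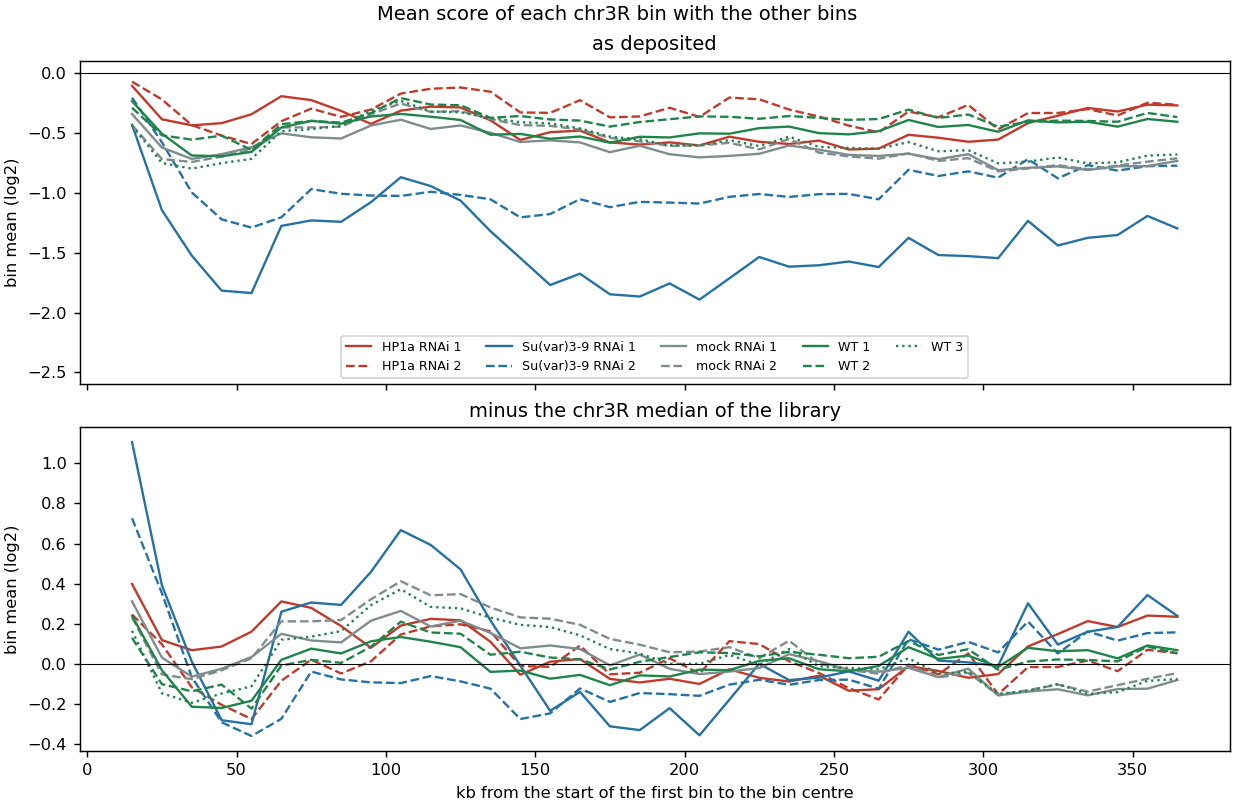
Mean score (log2) of each chr3R bin with the other bins against its position (kb from the start of the first bin), as deposited above and minus the chr3R median of each library below. Each line is 1 library of HP1a RNAi, Su(var)3-9 RNAi, mock RNAi or WT. The dip near 50 kb and the rise near 100 kb are present in most libraries, and after subtraction both Su(var)3-9 RNAi lines are highest at the first bins and above mock RNAi over the last 60 kb.

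Bin means were compared with limma fitted over the bins of all 5 arms. These include 5 kb bins of chrX and were not matched with chr3R for distance. For HP1a RNAi minus mock RNAi all 36 chr3R bins had a positive difference, with a median of 0.20 against 0.33 over all 565 bins tested, but none was called at an adjusted p under 0.05 (0% of all bins were called) and none had an unadjusted p under 0.05, against 44 of all 565 bins. The smallest p belonged to chr3R:356153-366153, at -0.26 and -0.25 in HP1a RNAi, -1.19 and -0.78 in Su(var)3-9 RNAi, -0.78 and -0.74 in mock RNAi and -0.38, -0.33 and -0.69 in WT. Its difference was 0.50 ± 0.26 (SE, limma adjusted p = 0.558), followed by chr3R:336153-346153 with 0.51 ± 0.28 (limma adjusted p = 0.558). Both lie in the last 60 kb, and at the first of them both HP1a RNAi libraries were above all the controls.

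For Su(var)3-9 RNAi minus mock RNAi 35 of the 36 bins had a negative difference, with a median of -0.63 against -0.31 over all 564 bins tested. None of them was called (0% of all bins), although 23 of the 36 had an unadjusted limma p under 0.05, against 87 of all 564. At matched distances, chr3R minus the other autosomal arms was -0.24 and 0.47 in Su(var)3-9 RNAi, with opposite signs, and 0.14 and 0.04 in mock RNAi. The largest support was at chr3R:156153-166153, at -0.49 and -0.33 in HP1a RNAi, -1.77 and -1.18 in Su(var)3-9 RNAi, -0.56 and -0.44 in mock RNAi and -0.55, -0.39 and -0.42 in WT. The difference was -0.97 ± 0.27 (SE, limma adjusted p = 0.178), and at chr3R:56153-66153 it was -0.94 ± 0.26 (limma adjusted p = 0.178). The bin at 16153 was the only one with a positive difference, 0.07 ± 0.24 (limma adjusted p = 0.88). Without Su(var)3-9 RNAi replicate 1, 7 chr3R bins were called (29.6% of all bins), and without replicate 2, 27 were (41.5% of all bins), so the count changed with the library left out.

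For mock RNAi minus WT none of the 37 bins was called (0% of all 565) and none had an unadjusted p under 0.05, against 6 of all bins. The differences with the smallest p were -0.29 ± 0.23 at chr3R:356153-366153 and -0.28 ± 0.24 at chr3R:316153-326153 (SE, limma adjusted p = 0.657 each). The 2 bins with a positive difference were chr3R:6153-16153, 0.07 ± 0.23 (limma adjusted p = 0.807), and chr3R:56153-66153, 0.04 ± 0.24 (limma adjusted p = 0.863).

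With the chr3R median of each library subtracted, 14 of the 36 bins were called by limma for Su(var)3-9 RNAi minus mock RNAi, 7 higher and 7 lower, which is close to the 41.8% of all 564 bins called on that scale. The 7 higher bins were the 2 from 16153 to 36153 and 5 of the 6 in the last 60 kb, and of the 7 lower bins 6 lay between 156153 and 216153. The bin at 26153, which had the smallest p, was at a relative mean of 0.39 and 0.35 in Su(var)3-9 RNAi and 0.03 and -0.05 in mock RNAi, a difference of 0.38 ± 0.07 (SE, limma adjusted p = 0.00238). The bin at 156153 was at -0.23 and -0.25 in Su(var)3-9 RNAi and 0.09 and 0.23 in mock RNAi, a difference of -0.40 ± 0.09 (SE, limma adjusted p = 0.00811). The other lower bin was chr3R:56153-66153. In the last 60 kb the mean of the relative bin means was 0.19 and 0.01 in HP1a RNAi, 0.22 and 0.14 in Su(var)3-9 RNAi, -0.12 and -0.10 in mock RNAi and 0.07, 0.03 and -0.11 in WT. Both Su(var)3-9 RNAi libraries lay above all 5 controls there, while HP1a RNAi replicate 2 lay below WT replicates 1 and 2.

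The same comparisons were made for single pairs. For HP1a RNAi minus mock RNAi 503 of 591 chr3R pairs had a positive difference, with a median of 0.24 against 0.34 over all 35199 pairs, and none was called by limma (0% of all pairs), while 23 had an unadjusted p under 0.05, against 5196 of all pairs. For mock RNAi minus WT none of 616 pairs was called (0% of 35283 pairs) and none had an unadjusted p under 0.05, against 1277 of all pairs. For Su(var)3-9 RNAi minus mock RNAi only 40 of 596 pairs had a positive difference, the median was -0.57 against -0.36 over all 23522 pairs, and 5 pairs were called, all lower. This is a smaller share than the 1.59% of all pairs called. The medians over all pairs were not matched with chr3R for distance.

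Of these 5 pairs, 2 made up the neighbour contacts of the first block and 2 joined neighbours between 146153 and 186153. The pair of chr3R:46153-56153 with chr3R:56153-66153 was at 0.79 and -0.44 in HP1a RNAi, -1.85 and -2.05 in Su(var)3-9 RNAi, 0.59 and 0.40 in mock RNAi and 0.58, 0.40 and 0.34 in WT. Su(var)3-9 RNAi lay below all other libraries, and the difference from mock RNAi was -2.45 ± 0.40 (SE, limma adjusted p = 0.0367). The fifth pair spanned 100 kb, from chr3R:56153-66153 to chr3R:156153-166153, at -0.45 and -0.44 in HP1a RNAi, -2.37 and -1.88 in Su(var)3-9 RNAi, -0.56 and -0.50 in mock RNAi and -0.72, -0.63 and -0.48 in WT. Its difference from mock RNAi was -1.59 ± 0.30 (SE, limma adjusted p = 0.0435). The calls depended on single libraries. No chr3R pair was called with the replicate number as a block or without either mock RNAi library (0% of all pairs in each of these 3 fits). Without Su(var)3-9 RNAi replicate 1, 101 chr3R pairs were called (30.5% of all pairs), and without replicate 2, 280 were (26% of all pairs). After subtraction of the arm median 36 of 596 pairs were called, 10 higher and 26 lower, against 19.2% of all pairs.

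Likeness of the libraries was described by Pearson's correlation of their chr3R scores over the pairs with a value in both libraries compared, 586 to 624 of them. The smoothed pairs share bins and libraries, so no p is given. The 2 HP1a RNAi libraries correlated at 0.44 and the 2 Su(var)3-9 RNAi libraries at 0.41, against 0.91 for the 2 mock RNAi libraries and 0.69 to 0.83 for the 3 pairs of WT libraries. Over pairs, replicates of a depletion were thus less alike than replicates of a control. Between groups, mock RNAi and WT correlated at 0.61 to 0.94, HP1a RNAi and mock RNAi at 0.47 to 0.63, and Su(var)3-9 RNAi and mock RNAi at -0.01 to 0.32. The highest value between a mock RNAi and a WT library exceeded those within either group. Over bin means the 2 Su(var)3-9 RNAi libraries correlated at 0.65, within the 0.40 to 0.78 of the WT libraries. The 2 HP1a RNAi libraries correlated at 0.36 and the 2 mock RNAi libraries at 0.92 on that measure.

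Finally, chr3R was set against the other autosomal arms at matched distances. In each library the median score of chr3R at each distance, averaged over distances, was compared with that of chr2L, chr2R and chr3L. The difference was 0.09 and -0.06 in HP1a RNAi, -0.24 and 0.47 in Su(var)3-9 RNAi, 0.14 and 0.04 in mock RNAi and -0.03, -0.16 and -0.07 in WT. It was positive in 4 of 9 libraries and averaged 0.02 (two-sided exact permutation test, p = 0.797), so no shift of chr3R was detectable. The Su(var)3-9 RNAi replicates lay at opposite ends of the range, and replicate 1, with the lowest chr3R median, was lower on chr3R than on the other arms while replicate 2 was higher.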

How the data were processed

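5C libraries of S2 cells were made with EcoRI and primers designed for 5 pericentromeric regions. Per the methods, reads were mapped with Bowtie2 to all forward and reverse primer combinations (dm3), scaled to the total of mapped reads, set against a non-crosslinked control, divided by the frequency expected at each distance, and median-binned and median-smoothed over 10 kb with my5C. Smoothing makes neighbouring scores share data, and division by the expected frequency removes the average decay. The log2 scores, which the authors deposited per library, hold no read counts, so depth, counting intervals and floors are unknown. Scores of 0 were read as missing.

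Each pair was used once. Library medians, shares above 0, linear slopes and short-range excess were compared with exact permutation tests, two-sided (scipy 1.17.1), adjusted by Benjamini-Hochberg over 17 tests. Bin means (at least 5 pairs) and pair scores of all arms were fitted with limma 3.58.1 (R 4.3.3) over the 9 libraries, adjusted over all features, and called at an adjusted p under 0.05. The limma step was tested on data simulated for HP1a RNAi minus mock RNAi. A shift of 1 was recovered in 53.5% of the changed bins and 0% of the changed pairs. A shift of 2 was recovered in 93.5% of the changed bins and 30% of the changed pairs. Shifts between 0 and 1 were not simulated, so an absence of calls cannot decide whether differences of that size were present. At the recoveries above, an absence of calls also cannot decide a shift of 1 in bins, or of 1 or 2 in pairs. The simulated noise was independent between features, unlike that of the smoothed scores, and only 200 features were shifted. Named items were the 3 highest and 3 lowest bins in the controls, the bins with the smallest p in each direction, and the 6 pairs above 0 in most libraries. Other pairs, blocks and stretches were chosen after their values were seen. The members and lists were chosen with earlier results of these data known. Primer sequences were read from the study's primer list.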

Additional observations from a re-analysis of the deposited data

Results flagged for a closer look

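Relative to mock RNAi, both HP1a RNAi libraries and both Su(var)3-9 RNAi libraries moved in opposite directions in the median chr3R score, and the 2 effects differed by 0.82. In the share of chr3R pairs above 0 they again lay on opposite sides of both mock RNAi libraries, and the 2 effects differed by 11.1 percentage points. Each difference stood at the smallest p that an exact permutation test of 2 libraries against 2 can give, 0.333, and no other test of it was run. The share above 0 depends on the level of the library, so it is no separate result. Relative to each library's median both differences from mock RNAi in that share changed sign. The HP1a RNAi medians lay within or above the WT range, while mock RNAi lay below all WT libraries.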

How the results depend on the processing

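Of 304 re-computations of 23 results, 264 kept the direction and the side of the threshold or, for counts of calls, stayed at 0 or at a similar size. Exact permutation tests of 2 libraries against 2, or of mock RNAi against WT, cannot reach p = 0.05. Their side of the threshold was therefore fixed, and the total is no measure of how robust they are. The share above 0 relative to the library median (over 0.5) reversed to -4.84 percentage points for HP1a RNAi minus mock RNAi, to 1.29 for Su(var)3-9 RNAi minus mock RNAi and to 1.93 for both depletions minus the controls. The last, near 0 at first, also reversed with all chr3R bins (1.59), without neighbouring bins (0.86) and with each distinct score counted once (0.0873), and ran from -2.12 to 1.86 when single libraries were left out. The slope of both depletions minus controls passed an unadjusted exact permutation p of 0.05 with zeros kept (0.178 per 100 kb), with pairs valued in all 9 libraries (0.18) and, added after the values were seen, without the first 3 bins (0.176). Without single libraries the median score ran from 0.15 to 0.34 for HP1a RNAi minus mock RNAi, from -0.88 to -0.27 for Su(var)3-9 RNAi minus mock RNAi and from -0.43 to -0.02 for both depletions. The short-range excess of both depletions minus controls passed an unadjusted exact permutation p of 0.05 with near pairs up to 100 kb (-0.14), and ran from -0.214 to -0.0898 without single libraries. The slope of mock RNAi minus WT reversed without neighbouring bins (0.00096) and with distinct scores (0.00438), and ran from -0.047 to 0.041 without single libraries. Without single libraries the share above 0 of mock RNAi minus WT ran from -2.33 to 2.82, its short-range excess from -0.082 to 0.168 and that of HP1a RNAi minus mock RNAi from -0.184 to 0.0847. chr3R minus the other arms reversed with zeros kept (-0.0413) and ran from -0.0347 to 0.0536 without single libraries. Bins called for Su(var)3-9 RNAi minus mock RNAi numbered 14 relative to the arm median, 9 after distance correction (36.9% of all bins) and 0 to 27 without single libraries. For pairs the counts were 36 relative to the arm median and 0 to 280 without single libraries. For HP1a RNAi minus mock RNAi 1 bin was called after distance correction (11% of all bins). The causes were not tested.

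Same-numbered libraries did not deviate together (r = 0.16 for HP1a and Su(var)3-9 RNAi, -0.15 for HP1a and mock RNAi, -0.20 for Su(var)3-9 and mock RNAi, 585 pairs). With the replicate block, 0 pairs were called for Su(var)3-9 RNAi minus mock RNAi in place of 5, and the median differences stayed at 0.25 for HP1a RNAi and -0.57 for Su(var)3-9 RNAi, and no other call changed. With mock RNAi numbers crossed, 0 bins and 0 pairs were called in both comparisons. Where 1 library was left out of a group of 2, the exact comparison is a value with no test, and limma assumed that the lone library varied like the other groups.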

Other observations

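The last 6 bins of chr3R were left out above. Of the 237 pairs that involve them, 50.2% and 51.5% had no value in HP1a RNAi, 43.5% and 46.0% in Su(var)3-9 RNAi, 40.5% and 42.6% in mock RNAi and 40.9%, 41.4% and 41.4% in WT. Their median score was -0.16 and -0.21 in HP1a RNAi, -1.08 and -0.69 in Su(var)3-9 RNAi, -0.64 and -0.59 in mock RNAi and -0.39, -0.38 and -0.61 in WT. Scores of a bin with itself, which are no contacts between bins, had medians of 0.21 and -0.03 in HP1a RNAi, -1.43 and -0.77 in Su(var)3-9 RNAi, -0.21 and 0.11 in mock RNAi and -0.14, 0.03 and 0.01 in WT.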
